A study of Mus musculus with 16 samples.

Results

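The genes described here encode the COPI coat and the GTPase that recruits it. They are *Copa*, *Copb1*, *Copb2*, *Copg1*, *Copg2*, *Cope*, *Copz1* and *Arcn1*, which encode subunits of the coat, and *Arf1*. They were chosen by their names as coat components, and the set was selected because *Copb1* was lower in Nlrp3-/- cells of these same libraries. The Nlrp3-/- against WT values of the set are therefore given as a description, with no p-value, and nothing is read from how many of the set passed a threshold there. All 9 genes are among the 24421 gene symbols of the libraries, and all 9 passed the filter on low counts in each comparison.

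The libraries come from myeloid-derived suppressor cells (MDSCs), immature myeloid cells that accumulate in tumor-bearing hosts. Monocytic M-MDSCs (CD11b high, Ly6C+, Ly6G-) and granulocytic G-MDSCs (CD11b high, Ly6C-, Ly6G+) were sorted to a purity above 95% from the spleens of 8 mice carrying subcutaneous B16.F10 melanomas, 4 WT and 4 Nlrp3-/-. The WT mice were C57BL/6J from a commercial breeder and the Nlrp3-/- mice a separate colony on a C57BL/6 background, so genotype and colony cannot be told apart. The M-MDSC and G-MDSC libraries of 1 number carry the name of 1 spleen in the sample descriptions, and are taken as 1 mouse, giving 4 libraries in each of 4 groups. In the Nlrp3-/- mice an EGFP cassette ending in an SV40 poly(A) signal disrupts *Nlrp3* at the start codon in exon 2 in every cell, while the injected tumor cells carry an intact gene. The mice were 6 to 12 weeks old and matched for age and sex, and by the general methods were killed 15 days after tumor induction unless another time was given.

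COPI is a protein coat that buds vesicles from the Golgi and returns proteins to the endoplasmic reticulum (ER). ARF1, once loaded with GTP on the Golgi membrane, recruits the coat as a preassembled complex called coatomer. Coatomer has an outer subcomplex of the alpha (*Copa*), beta′ (*Copb2*) and epsilon (*Cope*) subunits, and an inner, adaptor-like subcomplex of the beta (*Copb1*), gamma (*Copg1* or *Copg2*), delta (*Arcn1*) and zeta (*Copz1* or *Copz2*) subunits. The coat recognises lysine-based signals at the ends of ER membrane proteins and also brings back escaped ER proteins through the KDEL receptor. STING, an ER adaptor of innate DNA sensing that leaves the ER to signal, is among the proteins that return by this route.

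The promoters of the genes were read from the RefSeq sequences of GRCm38, the build that mm10 names, over 300 bases that run from upstream of each start site to shortly after it. They are shown because 5 of the 8 genes with an entry, *Copb1*, *Copb2*, *Copg1*, *Copz1* and *Arf1*, carry the letters CCACGTC on one strand or the other. Of 27025 genes with a promoter entry, 738 carried these letters, or 2.73%. This background includes genes that did not pass the filter on low counts. Of those that passed it for the genotype comparison, 329 of 7711 in M-MDSCs and 309 of 7205 in G-MDSCs carried the letters. The longer form TGACGTGG, whose last 7 letters are the reverse complement of CCACGTC and which is the core of the element bound by the unfolded protein response factors XBP1 and ATF6, was found in *Copb1*, *Copb2* and *Arf1* and in 0.714% of all promoters. The capitals below mark CCACGTC or its complement in windows of 29 bases, written 5′ to 3′ on the strand of the gene.
Copb1, chr7:114254691-114254719, minus strand: cccgcccccttCCACGTCagccaaggact
Copb2, chr9:98563713-98563741, plus strand: tcccggaagttCCACGTCagtgggttggc
Copz1, chr15:103272887-103272915, plus strand: cttgtgcgactCCACGTCggcagcagcta
Copg1, chr6:87887931-87887959, plus strand: gtgctcagggcGACGTGGcgggcgggagt
Arf1, chr11:59228228-59228256, minus strand: cggcaggcgctGACGTGGctgccgtcagc

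With the RefSeq start base counted as 0, the centre of the motif lay at -25 in *Copb1*, at -4 in *Copb2*, at 5 in *Copg1*, at 13 in *Copz1* and at 25 in *Arf1*. The ER stress response element known as ERSE was found in 0 of the 8 promoters and in 0.137% of all. The cyclic AMP response element TGACGTCA was found in *Cope* and in 2.03% of all. The motif was searched after the sequences were read, a match is a description of letters alone, and *Arcn1* had no promoter entry. Among 329 genes with CCACGTC that were tested in M-MDSCs, 2.74% were higher and 7.90% lower in Nlrp3-/- cells by the thresholds given below, beside 3.37% and 6.89% of the 7711 tested genes with a promoter entry. In G-MDSCs the shares were 3.56% and 15.5% of 309, beside 4.83% and 11.6% of 7205.

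The libraries were 3′ mRNA libraries, in which a read marks the 3′ end of a transcript, and they held 2295967 to 6079866 counts. *Nlrp3*, the targeted gene, had 219 to 632 counts in the WT M-MDSC libraries against 4 to 11 in those of Nlrp3-/- mice. In G-MDSCs it had 744 to 1365 counts against 21 to 59. The sorted subsets carried their markers, and some markers were also present in the other subset. *Ccr2*, a monocyte chemokine receptor, stood at 793 to 1561 CPM, counts scaled to a fixed library total, in M-MDSCs and 3.39 to 12.3 in G-MDSCs, and *Cxcr2*, a neutrophil receptor, at 0.209 to 3.51 and 851 to 3189. Within G-MDSCs *Cxcr2* was 1847 to 3189 CPM in WT and 851 to 1541 in Nlrp3-/- mice. *Ly6c2*, which encodes a Ly6C protein, was 752 to 1594 CPM in M-MDSCs and 181 to 287 in G-MDSCs. *Csf1r*, another monocyte marker, was 1044 to 2787 CPM in M-MDSCs. In G-MDSCs *Csf1r* was 339 to 691 CPM in WT and 699 to 908 in Nlrp3-/- mice. *Itgam*, which encodes CD11b, was 148 to 230 and 97.0 to 136 CPM in M-MDSCs, and 476 to 576 and 260 to 333 in G-MDSCs. Of 5 shared myeloid markers, 2 were called lower in each subset by the thresholds given below, where 7.1% and 11.7% of all genes were. Called higher were 0 of them in M-MDSCs and 1 in G-MDSCs. *Ly6g* was not analysed here. The summed level of 9 neutrophil markers ranged from 1299 to 7688 CPM over WT M-MDSC libraries, while G-MDSCs had at least 111956. Of 5 melanoma markers, *Tyr*, *Tyrp1* and *Mlana* had no count in any group, and the summed level did not exceed 1.45 CPM in any library. The 20 genes with the most counts took 15.2% to 29.98% of an M-MDSC library and 27.9% to 43.2% of a G-MDSC library, so CPM values were scaled by TMM factors over the 16 libraries.

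**Figure D1:**
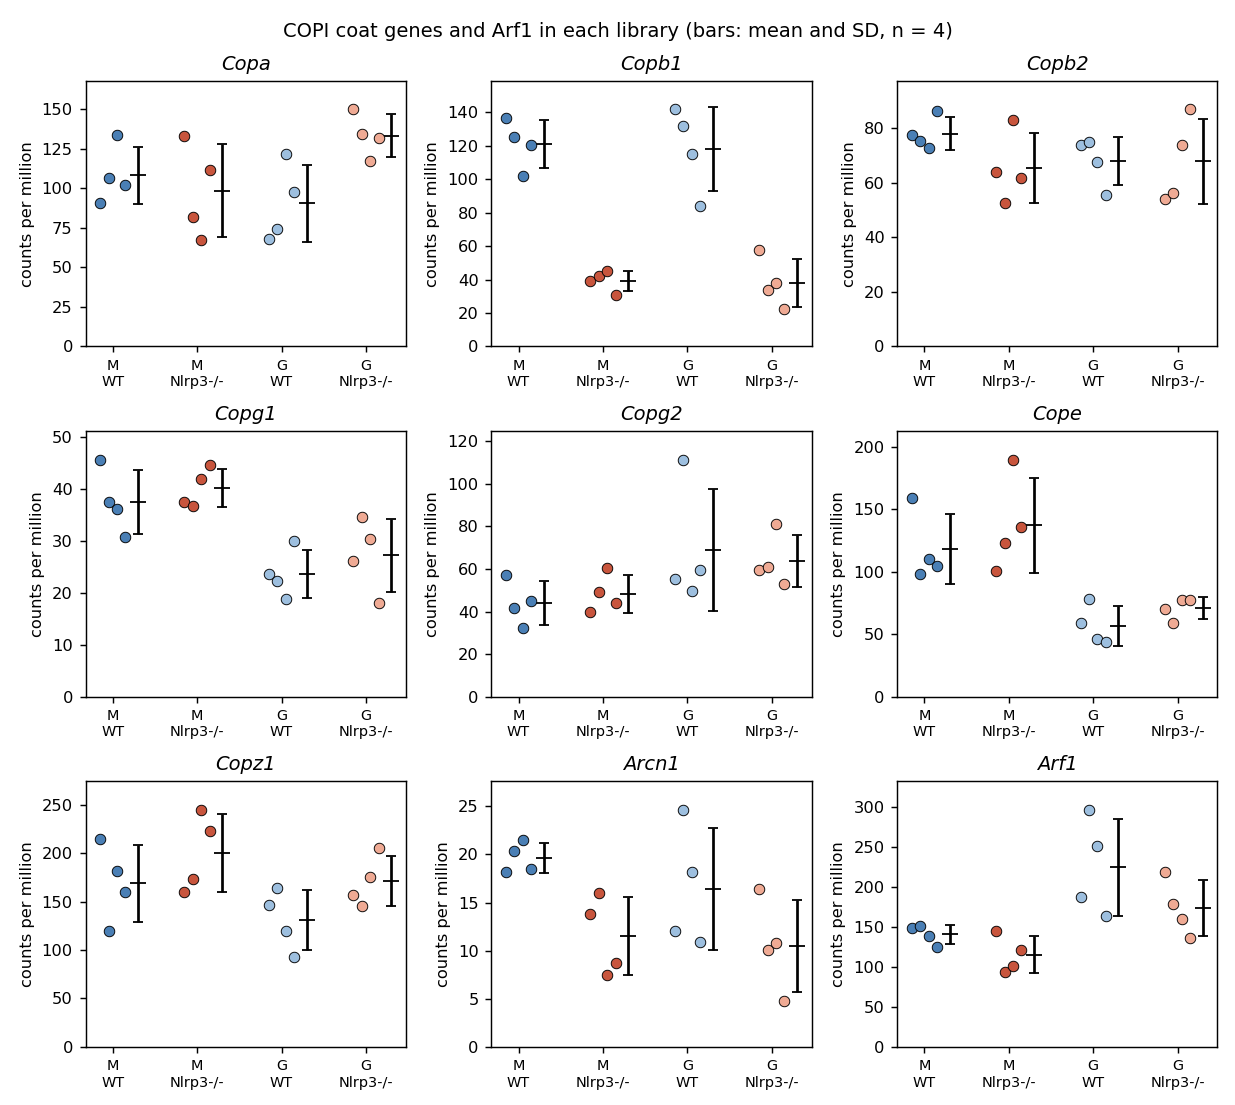
CPM (y axis, TMM-scaled, from 0) of the 8 coat genes and *Arf1* in the 16 libraries, by subset and genotype (x axis); each point is 1 library and the bars give the mean and SD of 4. The *Copb1* points of WT cells, 83.9 CPM and above, lie over all those of Nlrp3-/- cells, 57.4 CPM and below; *Cope* and *Copg1* sit lower in G-MDSCs than in M-MDSCs.

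*Copb1* encodes beta-COP, part of the inner subcomplex, and lies at chr7:114215559-114254711 on the minus strand of GRCm38. In M-MDSCs it measured 136, 125, 102 and 120 CPM in the 4 WT libraries and 38.9, 41.9, 45.0 and 31.0 CPM in the 4 Nlrp3-/- libraries. In G-MDSCs it measured 142, 132, 115 and 83.9 CPM in WT and 57.4, 34.01, 37.6 and 22.5 CPM in Nlrp3-/- libraries. In neither subset did the genotypes overlap. The means were 121 ± 14.5 CPM for WT and 39.2 ± 6.00 for Nlrp3-/- M-MDSCs, and 118 ± 25.3 and 37.9 ± 14.5 in G-MDSCs (SD, n = 4 each). The log2 fold change was -1.60 (SE 0.17) in M-MDSCs and -1.72 (SE 0.26) in G-MDSCs, which is 3.03-fold and 3.30-fold lower. Without any 1 library the value stayed between -1.68 and -1.54 in M-MDSCs and between -1.98 and -1.53 in G-MDSCs. By this value, on which the set was chosen, *Copb1* ranked 128 from the lowest of 9986 genes in M-MDSCs and 224 of 9273 in G-MDSCs.

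A gene was called where the FDR of edgeR's quasi-likelihood test was under 0.05 and the fold change above 1.5, the thresholds of the study. In the Nlrp3-/- against WT comparison of M-MDSCs, 3.51% of tested genes were called higher and 7.1% lower, and in 19.3% the genotypes did not overlap. In G-MDSCs these shares were 4.7%, 11.7% and 24.3%. Of the calls, 66.9% were lower in M-MDSCs and 71.4% in G-MDSCs, and with library size alone 45.4% and 51.8%, as the median of all genes went from 0.07 to 0.17 and from 0.03 to 0.16 on the log2 scale. With upper-quartile scaling 60.9% of the calls in G-MDSCs were lower. Of the 9 genes, *Copb1* alone was called, as lower, in each subset. *Arcn1* joined it in M-MDSCs without Nlrp3-/- replicate 1 (-0.88) or Nlrp3-/- replicate 2 (-0.98), and in G-MDSCs *Copa* was called higher without WT replicate 3 (0.67) and *Arf1* lower after the correction described below (-0.78), though not with the replicate block added to it (-0.76). The genotypes did not overlap in *Copb1* and *Arcn1* in M-MDSCs and in *Copb1* in G-MDSCs. Nothing is read from these counts or from the calls of single genes of the set, since they come from the contrast that chose it.

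The fold change across all genes moved with base composition. Its Pearson correlation with transcript GC content was 0.34 over 9936 genes in M-MDSCs and 0.36 over 9227 in G-MDSCs, across genes that are not independent replicates. By the longest annotated transcript of each gene, *Copb1*, at 42.6% GC, had the lowest GC content of the 9, and *Cope*, at 56.1%, the highest. After the trend with GC content and length was removed from each library, the *Copb1* fold change was -1.41 in M-MDSCs and -1.49 in G-MDSCs on the log2 scale. Markers of macrophages and dendritic cells moved with the genotype too. The summed level of 10 such markers ran from 51.9 to 93.2 CPM over WT M-MDSC libraries and from 115 to 245 over those of Nlrp3-/- mice, with 4 of 7 tested called higher. In G-MDSCs it ran from 75.5 to 183 and from 309 to 459 CPM, with 5 of 5 called higher, and *Xcr1*, a marker of conventional dendritic cells, had no count in Nlrp3-/- G-MDSCs. Of 6 NK cell markers *Klra4* had no count anywhere. Their summed level was 25.7 to 64.9 CPM for WT and 88.4 to 130 CPM for Nlrp3-/- M-MDSCs. For G-MDSCs it was 20.3 to 40.8 against 52.0 to 87.7 CPM. Called higher were 1 of 4 tested in M-MDSCs and 1 of 2 in G-MDSCs. Of all tested genes, 3.51% were called higher in M-MDSCs and 4.7% in G-MDSCs. Lymphocyte markers differed by subset. Summed B cell markers stood at 108 to 223 CPM in M-MDSCs and 268 to 446 in G-MDSCs, and T cell markers at 43.7 to 106 and 98.3 to 157. The part of these cells in the coat gene values was not tested, and in sorted bulk samples fewer cells of a type and less RNA per cell cannot be told apart.

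The same *Copb1* values can be given as a share of the coat gene counts, which needs no scaling between libraries and is no separate evidence of the difference the set was chosen on. Of all counts on the 8 subunit genes in a library, *Copb1* took 17.5% ± 2.22 for WT and 6.17% ± 1.10 for Nlrp3-/- M-MDSCs, and 20.5% ± 2.85 and 6.52% ± 2.45 in G-MDSCs (SD, n = 4 each). The lowest WT library had 14.7% and the highest Nlrp3-/- library 9.73%. The other 7 subunit genes summed to 574 ± 69.3 CPM for WT and 602 ± 75.4 for Nlrp3-/- M-MDSCs, and to 455 ± 67.6 and 544 ± 34.3 in G-MDSCs. The WT and Nlrp3-/- ranges of this sum overlapped in both subsets, at 499 to 662 and 533 to 695 CPM in M-MDSCs and at 390 to 550 and 501 to 577 in G-MDSCs. These shares compare a subunit with itself between groups and say nothing of protein stoichiometry.

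**Figure D2:**
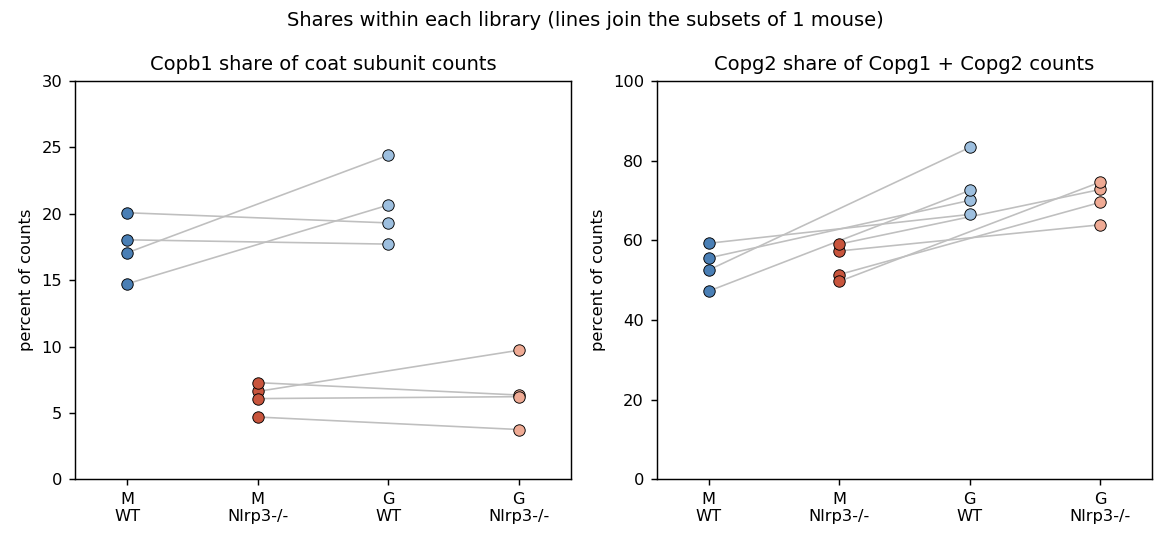
Percent of counts (y axis) taken by *Copb1* among the 8 coat subunit genes (left) and by *Copg2* among both gamma genes (right), by subset and genotype (x axis); each point is 1 library and grey lines join the M-MDSCs and G-MDSCs of 1 mouse. The *Copb1* share is 14.7% or more in WT and 9.73% or less in Nlrp3-/- libraries, and the *Copg2* share is higher in G-MDSCs in all mice.

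Of the remaining inner subunit genes, *Arcn1* had the most negative fold change. *Arcn1*, which encodes delta-COP (chr9:44741564-44767845), measured 18.2, 20.4, 21.6 and 18.5 CPM in WT and 13.8, 16.01, 7.51 and 8.72 CPM in Nlrp3-/- M-MDSCs. In G-MDSCs it measured 12, 24.7, 18.2 and 10.9 CPM in WT and 16.4, 10.1, 10.8 and 4.71 CPM in Nlrp3-/- libraries. The genotypes were apart in M-MDSCs and overlapped in G-MDSCs. Its log2 fold change was -0.74 (SE 0.26) in M-MDSCs and -0.73 (SE 0.38) in G-MDSCs, with 18 to 145 counts in a library. Without 1 library at a time it ran from -0.98 to -0.58 in M-MDSCs and from -1.02 to -0.46 in G-MDSCs.

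*Copg1* and *Copg2*, the alternative gamma subunits, had log2 fold changes of 0.12 (SE 0.17) and 0.16 (SE 0.20) in M-MDSCs and of 0.13 (SE 0.25) and -0.20 (SE 0.26) in G-MDSCs. *Copz1*, the zeta subunit, had 0.27 (SE 0.20) and 0.29 (SE 0.19). Its partner isoform *Copz2* had 0 to 5 counts in a library and did not enter the tests. The genotypes overlapped in *Copg1*, *Copg2* and *Copz1* in both subsets.

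Of the outer subunits, *Copb2* (beta′-COP) had log2 fold changes of -0.23 (SE 0.16) in M-MDSCs and -0.09 (SE 0.19) in G-MDSCs. *Cope* (epsilon-COP) had 0.23 (SE 0.21) in both subsets, and after the GC content and length correction -0.06 in M-MDSCs and -0.11 in G-MDSCs. *Copa* (alpha-COP) measured 90.5, 107, 134 and 102 CPM in WT and 133, 82.1, 67.4 and 112 in Nlrp3-/- M-MDSCs. In G-MDSCs *Copa* measured 68.0, 74.3, 122 and 97.5 CPM in WT and 150, 135, 117 and 132 in Nlrp3-/- libraries. Its log2 fold change was -0.10 (SE 0.23) in M-MDSCs and 0.47 (SE 0.19) in G-MDSCs, where only the highest WT library reached into the Nlrp3-/- range. Without 1 library at a time the value in G-MDSCs ran from 0.35 to 0.67.

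*Arf1*, the GTPase that recruits coatomer, had log2 fold changes of -0.26 (SE 0.18) in M-MDSCs and -0.46 (SE 0.21) in G-MDSCs. After the GC content and length correction these were -0.49 and -0.78. Without *Copb1*, the other 8 genes ranged from -0.74 to 0.27 in M-MDSCs and from -0.73 to 0.47 in G-MDSCs, with 4 above and 4 below 0 in each. Their median was 0.01 in M-MDSCs and 0.02 in G-MDSCs, beside 0.07 and 0.03 over all tested genes.

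**Figure D3:**
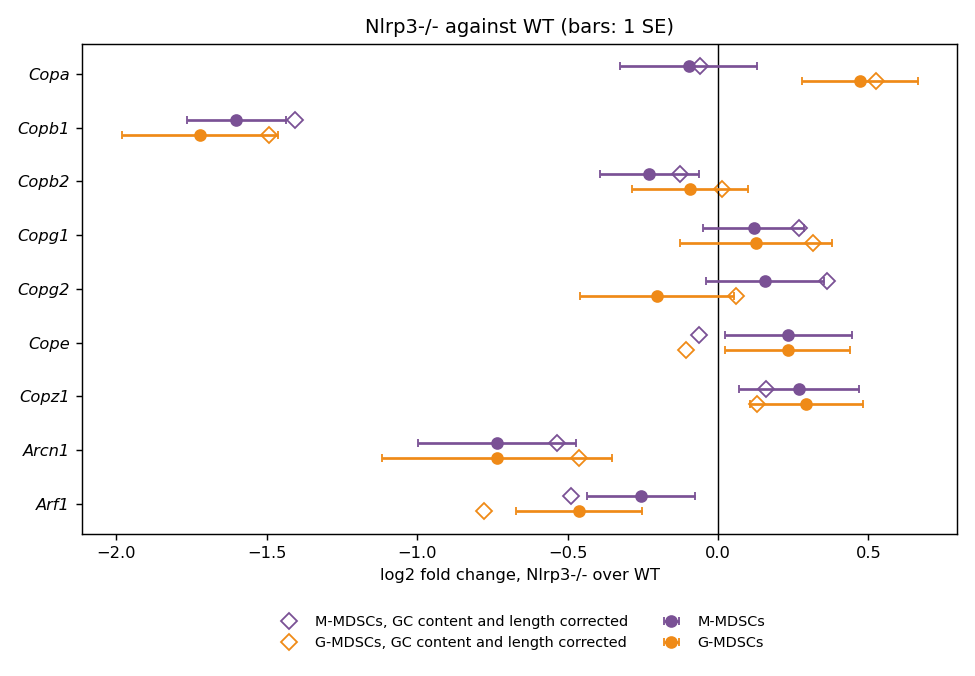
Log2 fold change of Nlrp3-/- over WT (x axis) of the 9 genes (y axis) in M-MDSCs and G-MDSCs; filled circles with bars give the estimate and 1 SE, and open diamonds the estimate after the GC content and length correction. *Copb1* lies at -1.60 and -1.72, *Arcn1* at -0.74 and -0.73, and the other 7 genes between -0.46 and 0.47.

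G-MDSCs and M-MDSCs of the same genotype were then compared, a contrast that took no part in choosing the genes. *Cope* and *Copg1* were lower in G-MDSCs of both genotypes, and *Copb1* did not differ beyond its error. *Arf1* was higher in WT G-MDSCs, and its value in Nlrp3-/- mice, in the same direction, was not called. In WT mice 26.3% of tested genes were called higher and 27.1% lower in G-MDSCs, and in 51.8% the subsets did not overlap. In Nlrp3-/- mice the shares were 23.7%, 27.4% and 50.2%. Of the 9 genes, 1 was called higher and 2 lower in WT mice, and 0 higher and 2 lower in Nlrp3-/- mice. The lower calls were near the share of all genes and the higher calls below it. The called genes were also those whose subsets did not overlap, a smaller share than over all genes. With 9 genes, nothing is read from these counts.

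*Cope* measured 159, 98.4, 110 and 104 CPM in M-MDSCs and 59.0, 78.3, 46.2 and 43.5 in G-MDSCs of WT mice. In Nlrp3-/- mice it measured 101, 123, 190 and 136 CPM in M-MDSCs and 70.1, 58.9, 77.4 and 77.2 in G-MDSCs. Each M-MDSC library was above each G-MDSC library of its genotype. The log2 fold change was -1.05 (SE 0.22, edgeR adjusted p = 0.00165) in WT and -1.06 (SE 0.19, edgeR adjusted p = 0.000355) in Nlrp3-/- mice, 2.08-fold and 2.09-fold lower in G-MDSCs.

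*Copg1* measured 45.6, 37.5, 36.2 and 30.8 CPM in M-MDSCs and 23.7, 22.3, 18.9 and 29.9 in G-MDSCs of WT mice. In Nlrp3-/- mice it measured 37.5, 36.6, 41.9 and 44.5 CPM in M-MDSCs and 26.1, 34.5, 30.4 and 18.1 in G-MDSCs. The subsets did not overlap in either genotype. The log2 fold change was -0.67 (SE 0.20, edgeR adjusted p = 0.0139) in WT and -0.67 (SE 0.23, edgeR adjusted p = 0.0217) in Nlrp3-/- mice. The call was lost without G-MDSC WT replicate 3 (-0.56) and, in Nlrp3-/- mice, without M-MDSC replicate 4 (-0.61), G-MDSC replicate 1 (-0.62) or G-MDSC replicate 4 (-0.49), or when all 16 libraries were fitted together (-0.56).

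*Arf1* measured 149, 151, 138 and 125 CPM in M-MDSCs and 187, 296, 251 and 164 in G-MDSCs of WT mice. In Nlrp3-/- mice it measured 145, 92.8, 101 and 121 CPM in M-MDSCs and 218, 179, 159 and 136 in G-MDSCs. It was higher in the G-MDSCs of 4 of 4 mice of each genotype. The log2 fold change was 0.68 (SE 0.19, edgeR adjusted p = 0.00985) in WT mice and 0.47 (SE 0.20, edgeR adjusted p = 0.0602) in Nlrp3-/- mice, where the subsets overlapped. The WT call was lost without M-MDSC replicate 4 (0.57) or G-MDSC replicate 2 (0.52), with upper-quartile scaling (0.46) and with at least 10 counts required in every library (0.57). The Nlrp3-/- value was called without M-MDSC replicate 1 (0.62) or G-MDSC replicate 4 (0.60), and when all 16 libraries were fitted together (0.59). With the mouse as a block it was 0.48 (SE 0.16, edgeR adjusted p = 0.0140), under the 1.5-fold threshold and so not called. With the GC content and length correction as well it was 0.51 (edgeR adjusted p = 0.00834), also under that threshold.

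The signs of *Arf1* and *Copg2*, and of *Copa* in Nlrp3-/- mice, turned with a scaling that moved all genes. With library size alone the median fold change of all genes went from -0.05 to -0.79 in WT and from -0.12 to -0.83 in Nlrp3-/- mice, and 81.3% and 81.4% of calls were lower in G-MDSCs, beside 50.8% and 53.6% with TMM. *Arf1* then stood at -0.08 and -0.24, but relative to the median of all genes at 0.71 and 0.59, beside 0.72 and 0.59 with TMM. *Copg2* relative to that median was 0.69 and 0.42 with library size alone, and 0.70 and 0.41 with TMM. *Cope* relative to that median was -1.02 and -0.94 with library size alone, and -1.01 and -0.94 with TMM.

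*Copb1* had log2 fold changes between the subsets of -0.03 (SE 0.18) in WT and -0.15 (SE 0.26) in Nlrp3-/- mice, with edgeR adjusted p values of 0.898 and 0.646. *Copa*, *Copb2*, *Copz1* and *Arcn1* were not called in either genotype, with values from -0.36 to 0.31. *Copg2* was 0.65 (SE 0.27, edgeR adjusted p = 0.0544) in WT and 0.29 (SE 0.19, edgeR adjusted p = 0.212) in Nlrp3-/- mice. With the mouse as a block the WT value of *Copg2* was 0.61, called higher at an adjusted p of 0.0247, and with the GC content and length correction as well it was 0.54, under the 1.5-fold threshold.

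**Figure D4:**
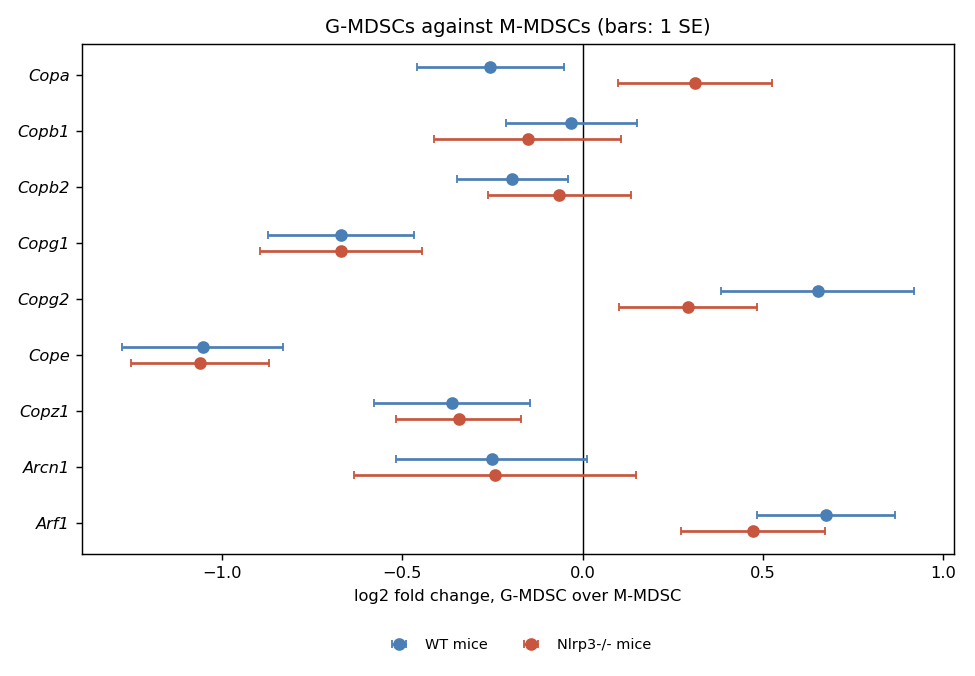
Log2 fold change of G-MDSCs over M-MDSCs (x axis) of the 9 genes (y axis) in WT and Nlrp3-/- mice, with bars of 1 SE, scaled by TMM. *Cope* lies at -1.05 and -1.06 and *Copg1* at -0.67 in both genotypes, while *Arf1* lies at 0.68 and 0.47, which with library size alone became -0.08 and -0.24.

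The gamma subunit comes from alternative genes, so their ratio within a library needs no scaling. *Copg1* lies at chr6:87887814-87913595 and *Copg2* at chr6:30747554-30896794, where it overlaps *Mest* on the opposite strand, and the reads were counted by strand. *Copg2* took 55.6%, 52.6%, 47.3% and 59.3% of both genes' counts in M-MDSCs and 70.0%, 83.3%, 72.5% and 66.5% in G-MDSCs of WT mice. In Nlrp3-/- mice it took 51.4%, 57.3%, 59.1% and 49.7% in M-MDSCs and 69.5%, 63.9%, 72.8% and 74.6% in G-MDSCs. No G-MDSC library was as low as any M-MDSC library, and the 2 gene counts together were 221 to 690 in a library. The exact (Clopper-Pearson) 95% interval of the lowest G-MDSC share was 58.9% to 68.7% and that of the highest M-MDSC share 52.5% to 65.8%, which covers counting error only. The mean share was higher by 19.4 points in WT and by 15.8 points in Nlrp3-/- G-MDSCs, in 4 of 4 mice each, with p = 0.0286 in each genotype by a two-sided exact permutation test, the smallest that 4 against 4 samples can give, and 0.0286 after adjustment over both tests. By genotype the M-MDSC libraries averaged 53.7% ± 5.07 for WT and 54.4% ± 4.52 for Nlrp3-/- mice, and the G-MDSC libraries 73.1% ± 7.25 and 70.2% ± 4.70 (SD, n = 4 each).

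Whether the genotype difference was unequal between the subsets was tested over the 16 libraries, where 3 of 10696 genes passed an FDR of 0.05, or 0.028%, and 480 had an unadjusted p under 0.05. None of the 8 genes other than *Copb1* was called by edgeR. *Copa* had the largest difference among them, with its genotype effect 0.69 (SE 0.30) higher in G-MDSCs on the log2 scale and an adjusted p of 0.992. With the mouse as a block the *Copa* difference was 0.76 (SE 0.21, edgeR adjusted p = 0.290). For *Copb1*, chosen on its genotype effect, the difference was -0.01 (SE 0.32).

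Other genes of ER and Golgi traffic, of clathrin and its adaptors and of the STING pathway were counted from hand-written lists. These held 155 genes, of which 146 were tested in M-MDSCs and 136 in G-MDSCs. In M-MDSCs 6 rose and 8 fell in Nlrp3-/- cells, and in G-MDSCs 8 rose and 18 fell. These are 4.11% and 5.48% of the tested list in M-MDSCs, beside 3.51% and 7.1% of all tested genes, and 5.88% and 13.2% in G-MDSCs, beside 4.7% and 11.7%, so the list as a whole was near the background. Its median log2 fold change was 0.12 and 0.16, beside 0.07 and 0.03 over all genes. After the GC content and length correction these counts were 4 and 5 in M-MDSCs and 4 and 7 in G-MDSCs. Over all genes the correction left 255 called higher and 407 lower of 9986 in M-MDSCs, and 272 and 680 of 9273 in G-MDSCs. In M-MDSCs the counts higher and lower were 2 and 7 without WT replicate 2 or WT replicate 3, 0 and 6 without WT replicate 4, 11 and 18 without Nlrp3-/- replicate 1, and 2 and 6 without Nlrp3-/- replicate 4. Over all tested genes the counts without these libraries were, in that order, 107 and 407, 145 and 524, 112 and 361, 646 and 1136, and 76 and 374. In G-MDSCs the list counts were 6 and 11 without WT replicate 2 and 4 and 12 without Nlrp3-/- replicate 3. Over all tested genes they were 259 and 891, and 272 and 961.

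**Figure D5:**
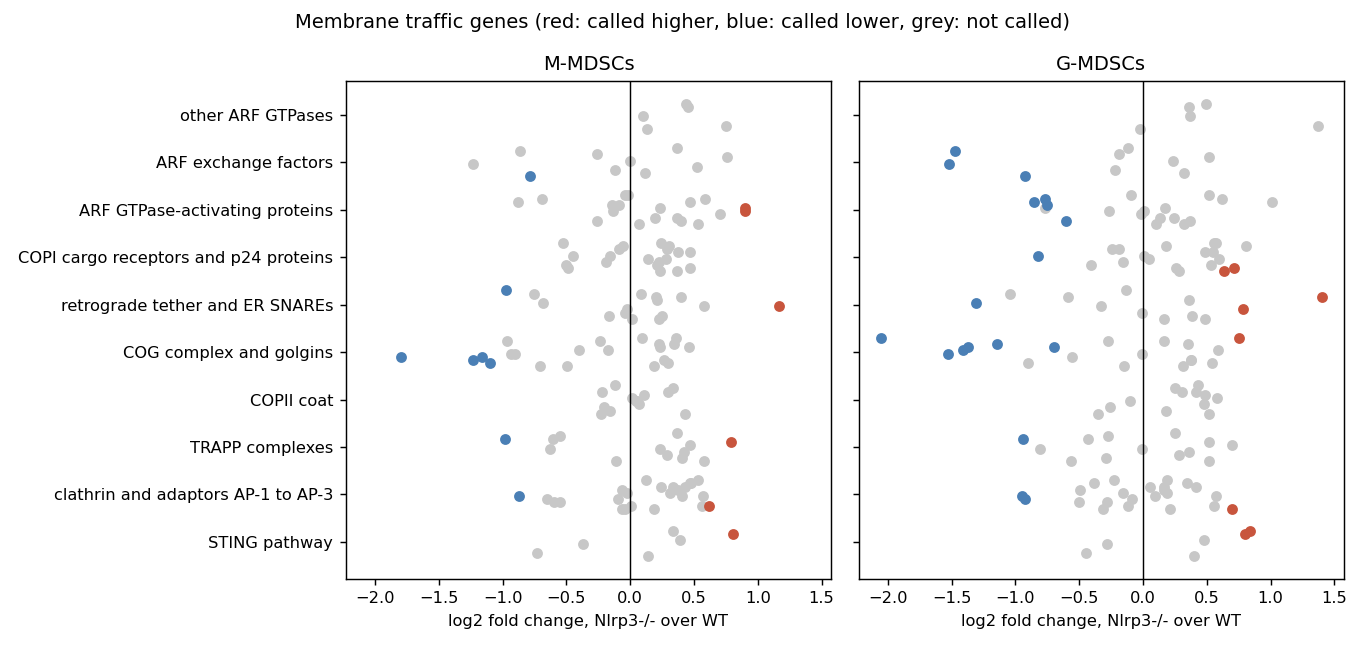
Log2 fold change of Nlrp3-/- over WT (x axis) of each tested gene of the traffic and STING pathway lists (y axis) in M-MDSCs (left) and G-MDSCs (right); vertical offsets within a list carry no value, and colours mark genes called higher or lower by edgeR. The golgin and COG list holds 4 genes called lower in M-MDSCs and 6 in G-MDSCs, and the COPII list has 0 called in either subset.

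Golgins are long coiled-coil proteins that tether vesicles to the Golgi, and the COG complex is a tether of retrograde Golgi traffic. Of 21 golgin and COG genes tested in M-MDSCs, 4 fell and 0 rose, and of 19 in G-MDSCs, 6 fell and 1 rose. The genes that fell are 19.05% and 31.6% of those tested, beside 7.1% and 11.7% of all genes. *Golgb1*, which encodes giantin, a golgin of COPI vesicle tethering, went from 87.1 ± 10.99 CPM in WT to 36.6 ± 9.97 in Nlrp3-/- M-MDSCs (log2 fold change -1.23, SE 0.20, edgeR adjusted p = 0.00427). In G-MDSCs it went from 121 ± 8.44 to 48.1 ± 3.58 CPM (-1.41, SE 0.15, edgeR adjusted p = 6.05e-05). *Gcc2*, a golgin of the trans-Golgi, fell by 1.16 on the log2 scale in M-MDSCs (SE 0.18, edgeR adjusted p = 0.00395), and *Trip11*, the golgin GMAP-210, fell by 2.06 on that scale in G-MDSCs (SE 0.19, edgeR adjusted p = 2.25e-05), from 165 ± 14.0 to 42.1 ± 9.75 CPM. The genotypes did not overlap in these genes. After the GC content and length correction 4 golgin and COG genes were called lower in each subset, *Golgb1* among them at -0.98 and -1.07. Over all tested genes 407 of 9986 in M-MDSCs and 680 of 9273 in G-MDSCs were then called lower.

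Among the regulators of ARFs, 1 of 10 exchange factors fell in M-MDSCs and 3 of 9 in G-MDSCs, and 0 rose, where 7.1% and 11.7% of all tested genes fell. *Arfgef1*, an ARF exchange factor, fell in both subsets, at -0.79 in M-MDSCs (edgeR adjusted p = 0.0302) and -0.92 in G-MDSCs (edgeR adjusted p = 0.00341), and was not called in either after the correction, at -0.40 and -0.44. *Cyth1*, another exchange factor, fell in G-MDSCs, at -1.52 (edgeR adjusted p = 0.00265) and at -1.78 after the correction. Of the GTPase-activating proteins, which switch ARFs off, 2 of 19 rose in M-MDSCs, beside 3.51% of all genes, and 4 of 18 fell in G-MDSCs, beside 11.7%. *Acap3* and *Git1* rose by 0.90 in M-MDSCs (edgeR adjusted p = 0.0220 and 0.0258), and *Agap1* and *Asap1* fell in G-MDSCs, at -0.77 and -0.60 (edgeR adjusted p = 0.00445 and 0.0157), all lost after the correction. Of the 5 other ARF GTPases 0 were called in either subset.

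COPI vesicles carry receptors that return cargo to the ER. Of 20 cargo receptor and p24 genes tested in M-MDSCs 0 were called, and of 19 in G-MDSCs 2 rose and 1 fell, where 4.7% of all genes rose and 11.7% fell. *Kdelr1*, which encodes a KDEL receptor, rose from 149 ± 20.2 to 259 ± 12.96 CPM in G-MDSCs (log2 fold change 0.71, SE 0.15, edgeR adjusted p = 0.00499), and *Surf4*, a cargo receptor of the early secretory pathway, rose by 0.63 (SE 0.19, edgeR adjusted p = 0.0342). Neither was called after the correction, at 0.38 each. Of the COPII coat, which buds vesicles in the opposite direction, 0 of 13 genes in M-MDSCs and 0 of 12 in G-MDSCs were called.

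Of the tether and SNARE genes of the ER and Golgi, 1 of 15 rose and 1 fell in M-MDSCs, beside 3.51% and 7.1% of all genes. In G-MDSCs 2 of 12 rose and 1 fell, beside 4.7% and 11.7% of all genes. *Scfd1*, a Sec1-family regulator of ER and Golgi SNAREs, fell in both subsets, at -0.97 in M-MDSCs (edgeR adjusted p = 0.00473) and -1.30 in G-MDSCs (edgeR adjusted p = 0.00631), and after the correction stood at -0.57 and -0.78, no longer called. *Bnip1*, an ER SNARE, rose by 1.16 in M-MDSCs (edgeR adjusted p = 0.0162) and by 1.40 in G-MDSCs (edgeR adjusted p = 0.0230), and *Use1*, an ER SNARE of the retrograde route, rose by 0.78 in G-MDSCs (edgeR adjusted p = 0.00852), a call lost after the correction (0.34). Of the TRAPP tethers, *Trappc8* fell in both subsets, at -0.98 and -0.94 (edgeR adjusted p = 0.0228 and 0.0278), both lost after the correction (-0.68 and -0.56), and *Trappc5* rose by 0.79 in M-MDSCs (edgeR adjusted p = 0.0177).

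The clathrin adaptors include beta subunits that are relatives of beta-COP. *Ap3b1*, of the AP-3 adaptor, fell in both subsets, at -0.87 in M-MDSCs (SE 0.14, edgeR adjusted p = 0.00443) and -0.95 in G-MDSCs (SE 0.18, edgeR adjusted p = 0.00236), and stayed called after the correction, at -0.80 and -0.86. *Ap2b1*, of the AP-2 adaptor, fell by 0.92 in G-MDSCs (SE 0.20, edgeR adjusted p = 0.00603). Of the whole list 1 of 24 rose and 1 fell in M-MDSCs, *Gga3* being the gene that rose, by 0.62 (edgeR adjusted p = 0.0454), and 1 of 23 rose and 2 fell in G-MDSCs, against the same shares of all genes. *Gga3* was not called after the correction (0.53).

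In the pathway of STING, which returns to the ER in COPI vesicles, 1 of 6 tested genes rose in M-MDSCs and 2 of 6 in G-MDSCs, and 0 fell, where 3.51% and 4.7% of all genes rose. *Irf3*, the transcription factor below STING, rose by 0.81 in M-MDSCs (edgeR adjusted p = 0.0204) and by 0.80 in G-MDSCs (edgeR adjusted p = 0.0157). *Tmem173*, which encodes STING, rose from 15.5 ± 4.12 to 29.3 ± 5.02 CPM in G-MDSCs (log2 fold change 0.84, SE 0.25, edgeR adjusted p = 0.0316). After the GC content and length correction 0 of these genes were called in either subset, with *Tmem173* at 0.63.

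The genes whose pattern over the 16 libraries was most like that of *Copb1* were not coat genes. By Pearson correlation of log2 CPM over 8822 genes, they were *Scaf11* (0.968), *Wbp11* (0.954), *Casp8ap2* (0.954), *Supt16* (0.952) and *Hnrnpul1* (0.950). Their log2 fold changes of Nlrp3-/- over WT ran from -1.56 to -0.995 in M-MDSCs and from -1.91 to -1.40 in G-MDSCs. Among the coat genes *Arcn1* had the highest correlation with *Copb1*, 0.76, and *Copz1* the lowest, -0.40, with *Arf1* at 0.42. The 16 points share 8 mice and the genotype difference, and with library size alone 4 of the 5 genes stayed among the 5 most alike.

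The 12 protein-coding neighbours of *Copb1* within 1000000 bases, chosen after its values were seen, were read as a check on the locus. In M-MDSCs 7 of them were tested and 0 called, with log2 fold changes of -0.91 to 0.38. In G-MDSCs 5 were tested and *Pde3b* was called lower, at -1.05 (SE 0.25, edgeR adjusted p = 0.0110), where 11.7% of all tested genes were called lower. *Pde3b* in M-MDSCs was at -0.84 (SE 0.26, edgeR adjusted p = 0.0559), just short of a call. *Psma1*, a proteasome subunit gene next to *Copb1*, had -0.36 (SE 0.28) in M-MDSCs and 0.04 (SE 0.27) in G-MDSCs.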

How the data were processed

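QuantSeq 3′ mRNA libraries of splenic M-MDSCs and G-MDSCs (4 WT and 4 Nlrp3-/- mice, 16 libraries, 15 or 17 amplification cycles) were analysed from the raw gene counts deposited by the authors, who mapped reads to mm10 with HISAT2 2.1.0 and counted them by strand and gene symbol with HTSeq; per the labels edgeR 3.14.0 was also used. No normalization had been applied to the deposited counts.

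Counts were fitted with edgeR 4.0.16 in R 4.3.3 (filterByExpr, TMM, quasi-likelihood test, Benjamini-Hochberg FDR over all tested genes). CPM per library were scaled over the 16 libraries, fold changes within each comparison, and log2 CPM used a prior count of 2. The SE is the size of the log2 fold change over the square root of F. The genes and lists were chosen with earlier results of these data known. Named genes are the 8 coat genes and *Arf1*, in each list and subset up to 2 called genes with the smallest p, and the 5 genes most correlated with *Copb1*. The longest GENCODE M21 transcript of each gene was matched to 24069 of 24421 symbols, and the GC content and length correction entered splines with 4 degrees of freedom as offsets. The whole transcript stands in there for the 3′ end that the reads mark, and need not be the form expressed. Scripts were tested on simulated data.

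An M-MDSC and a G-MDSC library of 1 genotype and number have 1 spleen name in the labels, which also give 1 mouse per RNA sample, and were taken as 1 mouse, with correlations of their deviations of 0.10 to 0.40 in WT and 0.01 to 0.38 in Nlrp3-/- mice, while those of different genotypes are different mice. Of 24 library pairs within groups 0 were identical, with a chi-square per degree of freedom of 6.76 to 50.6. Libraries held 2295967 to 6079866 counts. At these depths 3 counts were 0.348 to 1.17 CPM, and intervals cover counting error only, since reads of 1 molecule are not independent. Alternatives were other scalings and filters, DESeq2 1.42.0, edgeR's exact test, a model of all samples, the correction, the replicate block and fits without each library.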

Additional observations from a re-analysis of the deposited data

Results flagged for a closer look

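*Copa* differed between the subsets in opposite directions in the 2 genotypes, with libraries of 1 spleen name taken as 1 mouse. Its log2 CPM was lower in G-MDSCs than in M-MDSCs in 4 of 4 WT mice, by -0.52 to -0.07, and higher in 4 of 4 Nlrp3-/- mice, by 0.17 to 0.80. The mean difference was 0.76 higher in Nlrp3-/- mice. In the test across all genes the same contrast was 0.69 (SE 0.30, unadjusted p = 0.0327 and adjusted p = 0.992 by edgeR), so it did not pass the correction. No library stood apart from the other 3 of its group in the 44 groups of values examined, 9 genes and both shares in 4 groups each, by Dixon's 95% limit, which chance exceeds in about 1 of 20 groups.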

How the results depend on the processing

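The lower *Cope* of G-MDSCs passed both thresholds in each genotype under all 20 alternatives run there. The Nlrp3-/- against WT value of *Copb1*, on which the set was chosen and which is therefore a description alone, ran from -1.63 to -1.41 in M-MDSCs and from -1.77 to -1.49 in G-MDSCs over the alternatives that kept all libraries. The number of genes that differed by genotype moved more, from 1060 in M-MDSCs and 1522 in G-MDSCs to 662 and 952 with the GC content and length correction, and to 450 to 1782 and 1104 to 1544 without 1 library each. With the replicate number as a block, which pairs different mice here, the counts were 425 and 985, and 86 and 455 with the correction as well; the block alone, mice paired or not, changed 1 call of the 9 genes, that of *Copg2* between subsets in WT mice. The difference between subsets, 3 genes, gave 5 with no filter, 8 with DESeq2, 5 with the block and correction, and 2 to 5 without 1 library. The higher *Copg2* share, 19.4 and 15.8 points, had an exact p of 0.125 in each genotype when tested by sign flips within mice, the smallest that 4 pairs allow. Without 1 library it was 16.02 to 21.6 points in WT and 14.3 to 17.9 in Nlrp3-/- mice, where the unpaired test missed the threshold only without M-MDSC replicate 4.

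Signs of small G-MDSC against M-MDSC values turned. With library size alone *Copg2* was -0.10 in WT and -0.42 in Nlrp3-/- mice, *Arf1* -0.076 and -0.24, and *Copa* -0.41 in Nlrp3-/- mice, and in the model of all samples *Copb2* was 0.052 in Nlrp3-/- mice. Without 1 library *Copb1* ran from -0.16 to 0.11 in WT and, in Nlrp3-/- mice, from -0.40 to 0.051, *Copb2* from -0.18 to 0.064 and *Arcn1* from -0.52 to 0.014. For the difference of genotype effects between subsets, *Copb1* was 0.0064 with no filter, and without 1 library the ranges were -0.28 to 0.17 for *Copb1*, -0.083 to 0.27 for *Copg1*, -0.50 to 0.083 for *Copg2*, -0.18 to 0.30 for *Cope*, -0.13 to 0.26 for *Copz1*, -0.17 to 0.38 for *Arcn1* and -0.30 to 0.076 for *Arf1*. The causes were not tested. Depth limits *Arcn1*, with as few as 18 counts in a library, and *Copz2*, with 0 to 5.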
